A study of Homo sapiens with 6 samples.

Results

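The genes described here are the receptors through which monocytes bind the Fc part of antibodies, together with the adaptors that carry their signal. They were taken by symbol from a fixed list of 8 genes (FCGR1A, FCGR2A, FCGR2B, FCER1G, FCGRT, FCAR, FCER1A and TYROBP), and 7 of them were among the 33981 genes measured and the 19182 tested. FCER1A was not analysed here. Bulk mRNA was sequenced from THP-1, a cell line grown from a human acute monocytic leukemia, in 2 groups of 3 samples. The control samples had received a lentiviral vector with a scrambled shRNA, and the knockdown samples a vector with an shRNA against NFIC, a transcription factor of the nuclear factor I family. In both groups the cells that expressed GFP were sorted 4 days after infection. The study's methods describe the control vector as carrying GFP alone, and the name in the sample labels is used here.

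All samples came from 1 cell line, and no source used here says that the replicates were separate cultures, so the p-values measure the spread between these samples only. Each sample held between 20369543 and 24809720 counts on genes. Levels are given as CPM, counts scaled to a common library size with the TMM factors of edgeR, and the detection floor of 3 counts lay at 0.121 to 0.147 CPM. NFIC itself had 42.1, 41.4 and 42.2 CPM in the scrambled samples and 19.4, 22.3 and 21.4 CPM with NFIC shRNA, a log2 fold change of -0.99 (SE 0.0723, adjusted p = 3.73e-09, edgeR). Of 12 monocyte markers 11 were above 1 CPM in every sample, the exception being FCN1.

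Fc receptors link antibodies to phagocytosis, killing of coated targets and cytokine release. The activating receptors signal through a tyrosine motif called ITAM, which in most of them lies not in the receptor but in a partner chain such as FCER1G, and which recruits the kinase SYK once its tyrosines are phosphorylated. FCGR2B opposes them through an inhibitory motif called ITIM that recruits phosphatases, and FCGRT is a different kind of molecule that binds IgG inside acidic endosomes and returns it to the cell surface.

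The coding sequences of these motifs are printed because they set out which gene carries the activating and which the inhibitory signal. They were read from the GENCODE release 44 transcripts on GRCh38, 5′ to 3′ in the sense of the gene, with the tyrosine codons of each motif in capitals. Each unit of the ITAM was searched as a tyrosine followed, after any pair of residues, by leucine or isoleucine, and the inhibitory motif as isoleucine, leucine, valine or serine, any residue, tyrosine, any pair of residues, and leucine or valine. The short inhibitory pattern also matched by letters alone in FCGR1A, FCER1G, FCGRT and TYROBP, where it is not known to act and is not shown. The FCER1G motif covers codons 65 to 79 of 86 and lies on the plus strand at chr1:161218718-161218919, where an intron interrupts it. The TYROBP motif covers codons 91 to 105 of 113, on the minus strand at chr19:35904596-35907223, also across an intron. In both adaptors 7 codons stand between the 4-codon units of the motif. FCGR2A, which carries its own variant of the motif in its tail, has it at codons 288 to 307 of 317 (plus strand, chr1:161518056-161518115), with 12 codons in between. The FCGR2B motif covers codons 290 to 295 of 310 (plus strand, chr1:161677488-161677505).
FCER1G ITAM: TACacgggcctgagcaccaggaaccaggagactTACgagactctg
TYROBP ITAM: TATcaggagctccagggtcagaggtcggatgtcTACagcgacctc
FCGR2A ITAM-like motif: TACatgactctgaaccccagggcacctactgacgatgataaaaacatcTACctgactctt
FCGR2B ITIM: atcaccTATtcacttctc

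With NFIC shRNA, 4 of the 7 genes rose, namely FCAR, FCGR2A, FCER1G and TYROBP, 1 fell (FCGRT), and FCGR1A and FCGR2B did not pass the test. Over all 19182 genes tested, edgeR called 59.9% at an adjusted p under 0.05, with 29.6% of all genes called higher and 30.3% called lower with NFIC shRNA. The 5 of 7 called here (71.4%) thus stood beside a background in which most genes were called. The groups did not overlap for 6 of the 7 genes, FCGR1A being the exception, beside 65.2% of all genes tested. The median log2 fold change of the 7 genes was 0.40, and that of all genes -0.0113. In these bulk samples, more cells that express a gene and more RNA of it per cell cannot be told apart.

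**Figure D1:**
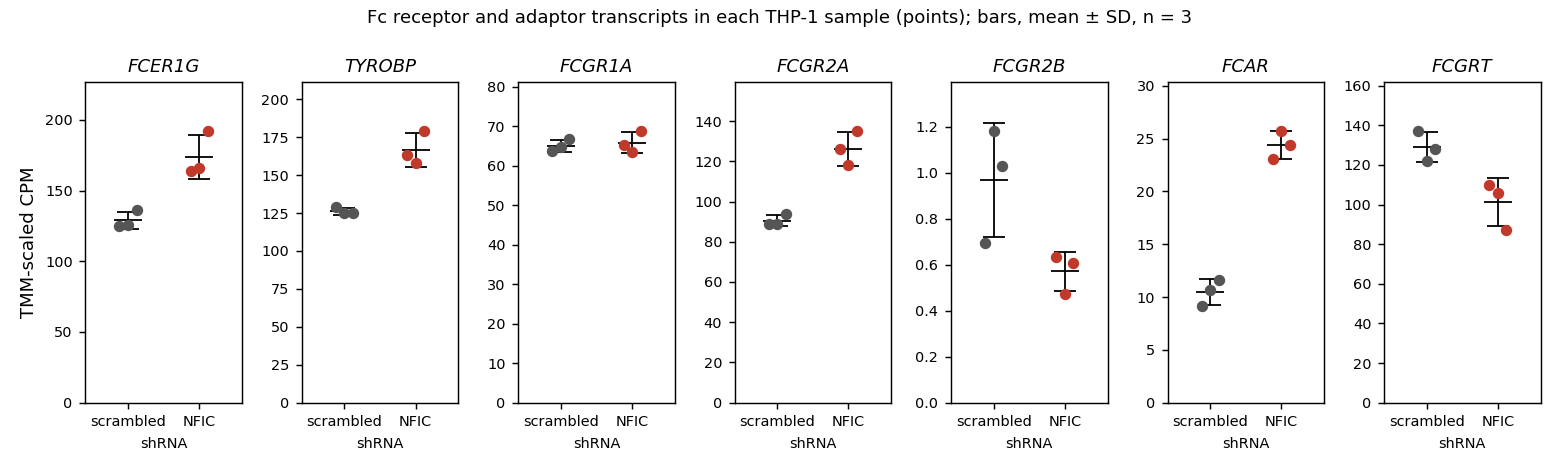
Level of each Fc receptor and adaptor gene in TMM-scaled CPM (vertical axes from 0, each gene on its own scale) in the 3 scrambled and 3 NFIC shRNA samples, as points, with bars for the mean and SD. The NFIC shRNA points lie above the scrambled points for FCER1G, TYROBP, FCGR2A and FCAR and below them for FCGR2B and FCGRT, while the FCGR1A points overlap.

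The adaptors rose by about the same amount. FCER1G, the common gamma chain that pairs with FCGR1A and FCAR (chromosome 1, 161215234 to 161220699, plus strand), had 125, 126 and 136 CPM in the scrambled samples and 164, 166 and 192 CPM with NFIC shRNA. All knockdown samples were above all controls, and replicate 3 was the highest of its group in both. Its log2 fold change was 0.44 (SE 0.0623, adjusted p = 1.20e-05, edgeR), or 1.35-fold. TYROBP, also named DAP12, which serves receptors of the TREM and SIRP families rather than Fc receptors (chromosome 19, 35904401 to 35908295, minus strand), had 129, 125 and 125 CPM in the scrambled samples and 163, 158 and 179 CPM with NFIC shRNA. Here too the groups stood apart, with replicate 3 of the knockdown the highest. The log2 fold change was 0.40 (SE 0.0545, adjusted p = 6.49e-06, edgeR).

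The balance between the adaptors was measured within each sample, which needs no library size. For every 100 FCER1G counts there were 103, 99.3 and 92.4 TYROBP counts in the scrambled samples and 99.5, 95.1 and 93.2 with NFIC shRNA. These ranges overlapped, and the mean log2 ratio differed by -0.03 between the groups (two-sided exact permutation test, p = 0.7, where the smallest p that 3 against 3 samples allow is 0.1). None of the 75-base windows of the FCER1G, TYROBP or FCGRT transcripts occurred in a transcript of another gene, so no annotated copy holds a 75-base stretch of them.

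FCAR, the receptor for IgA, changed most among the 7 genes. It lies on chromosome 19 (54874235 to 54891420, plus strand) in the leukocyte receptor cluster and signals through FCER1G. It had 9.11, 10.7 and 11.6 CPM in the scrambled samples and 23.1, 25.7 and 24.4 CPM with NFIC shRNA. The lowest knockdown sample was thus well above the highest control. The log2 fold change was 1.22 (SE 0.0964, adjusted p = 9.83e-09, edgeR), a 2.33-fold higher level with a 95% interval of the log2 fold change from 1.02 to 1.42.

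A long noncoding RNA, AC245128.3, is annotated on the same strand within the last 748 bases of FCAR, and 18% of the 75-base windows of FCAR transcripts are found in it. It had 72, 83 and 81 counts in the scrambled samples and 159, 146 and 193 with NFIC shRNA, and its log2 fold change was 1.09 (SE 0.149, adjusted p = 6.40e-06, edgeR). All 748 bases of AC245128.3 lie within FCAR, so its counts cannot be told apart from FCAR signal. Its change is therefore not a measurement separate from that of FCAR. FCAR is also a receptor of neutrophils, and the 5 neutrophil markers with a count summed to between 16.6 and 19.6 CPM in the scrambled samples and between 28.8 and 35.8 with NFIC shRNA. Nearly all of that sum was CXCR2, a chemokine receptor, with 16.4 and 30.5 CPM on average, while CXCR1 and LTF were at or near 0 and CAMP fell from 1.64 to 0.302 CPM. The part of this sum in the FCAR result was not tested.

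FCGR2A, the low affinity IgG receptor with its own activating motif (chromosome 1, 161505430 to 161524013, plus strand), had 89.0, 88.7 and 93.7 CPM in the scrambled samples. With NFIC shRNA it had 126, 118 and 135 CPM, so every knockdown sample exceeded every control. Its log2 fold change was 0.48 (SE 0.0574, adjusted p = 1.33e-06, edgeR), or 1.40-fold. The noncoding RNA AL590385.2, which overlaps it on the same strand, had 451, 499 and 463 counts in the scrambled samples and 644, 635 and 842 with NFIC shRNA, a log2 fold change of 0.60 (SE 0.0933, adjusted p = 2.95e-05, edgeR). Of the 75-base windows of FCGR2A transcripts 20.4% occur in another gene, and 5.77% of all windows occur in FCGR2C.

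FCGR2B, the inhibitory IgG receptor (chromosome 1, 161663143 to 161678654, plus strand), had few counts. There were 15, 29 and 22 counts in the scrambled samples and 13, 11 and 14 with NFIC shRNA, or 0.966 ± 0.248 and 0.570 ± 0.0843 CPM (SD, n = 3). In CPM all knockdown samples were below all controls, with scrambled replicate 1 the nearest to them. The log2 fold change of -0.77 (SE 0.330, 95% interval -1.46 to -0.07) had an adjusted p of 0.0536 in edgeR and of 0.213 in DESeq2, and did not pass. It had an adjusted p of 0.0394 with upper quartile scaling, of 0.0318 when at least 10 counts in every sample were required, and of 0.0298 without scrambled replicate 1, so its side of the threshold rested on these settings.

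Part of the FCGR2B count cannot be told from FCGR2C, a near copy that holds 11.7% of its 75-base windows. On the opposite strand the noncoding RNA AL451067.1 overlaps FCGR2B and matches 3.46% of these windows. AL451067.1 had 3, 8 and 3 counts in the scrambled samples and 1, 1 and 1 with NFIC shRNA. Its reads may not have been told apart from those of FCGR2B. FCGR2C had 45, 37 and 46 counts in the scrambled samples and 19, 58 and 37 with NFIC shRNA, which overlapped. Summed over both genes, the counts were 60, 66 and 68 against 32, 69 and 51, with a log2 fold change of -0.34 (adjusted p = 0.182, edgeR). FCGR2B is the main IgG receptor of B cells, and 4 of 5 listed B cell markers had counts, with a sum of 23.1 to 25.1 CPM in the scrambled samples and 16.3 to 17.9 CPM with NFIC shRNA. Of these CD79B was the most abundant (15.5 and 12 CPM), PAX5 had 4.32 and 2.07 CPM, and MS4A1 was not analysed here. The part of these transcripts in the FCGR2B values was not tested.

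The inhibitory receptor was set against the activating one within each sample. For every 100 FCGR2A counts there were 0.779, 1.33 and 1.10 FCGR2B counts in the scrambled samples and 0.500, 0.401 and 0.449 with NFIC shRNA. The groups did not overlap, and the mean log2 ratio was lower by 1.22 with NFIC shRNA (log2 difference -1.22, two-sided exact permutation test, p = 0.1, the smallest that this design allows). The ratio rests on few FCGR2B counts, and the rise of FCGR2A enters it as well.

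**Figure D2:**
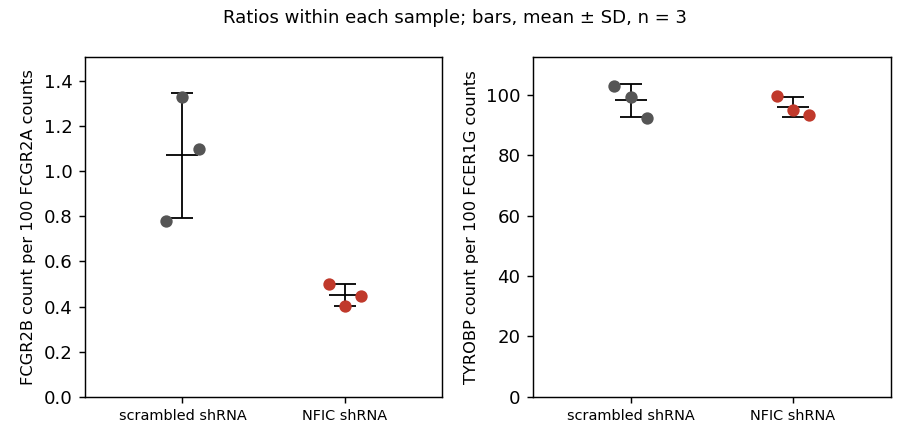
Ratio of FCGR2B to FCGR2A (left) and of TYROBP to FCER1G (right) in each sample, as counts of the first gene per 100 counts of the second (vertical axes from 0), with bars for the mean and SD of 3 samples. The FCGR2B to FCGR2A ratio is between 0.401 and 0.500 with NFIC shRNA and between 0.779 and 1.33 in the scrambled samples, whereas the adaptor ratio overlaps between groups.

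FCGR1A, the high affinity IgG receptor (chromosome 1, 149782671 to 149791675, plus strand), had 63.6, 64.8 and 66.7 CPM in the scrambled samples and 65.1, 63.5 and 68.7 CPM with NFIC shRNA. The groups overlapped fully. The log2 fold change was 0.02 (SE 0.0568, adjusted p = 0.820, edgeR), and its 95% interval from -0.10 to 0.14 leaves out changes as large as that of FCGR2A. This was the only one of the 7 genes whose groups overlapped, although its partner FCER1G rose.

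The FCGR1A count is uncertain in another way, since 65.8% of the 75-base windows of its transcripts occur in other genes, above all in FCGR1B (55.9%) and FCGR1CP (26.9%), copies of it elsewhere on chromosome 1. FCGR1B had 27.7 CPM in the scrambled samples and 26.5 CPM with NFIC shRNA on average (log2 fold change -0.06, adjusted p = 0.504, edgeR). FCGR1CP rose from 14.8 to 19.2 CPM (log2 fold change 0.38, adjusted p = 0.00178, edgeR). Together the 3 genes had 2294, 2566 and 2405 counts in the controls against 2325, 2542 and 2588 with NFIC shRNA, and their log2 fold change of 0.05 (adjusted p = 0.396, edgeR) had a 95% interval from -0.06 to 0.16. On the opposite strand the histone gene H2BC18 had 15.9 and 16.1 CPM, and the noncoding RNA AC243772.2 rose from 2.29 to 4.67 CPM. Whether the counting used the strand was not given in the sources used here, so reads of overlapping opposite genes may not have been told apart.

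FCGRT, the neonatal Fc receptor, was the only one of the 7 called lower, since the lower FCGR2B did not pass the test. It lies on chromosome 19 (49506816 to 49526428, plus strand). It had 137, 122 and 128 CPM in the scrambled samples and 110, 106 and 87.3 CPM with NFIC shRNA. All knockdown samples were below all controls, and replicate 3 of the knockdown was the lowest. The log2 fold change was -0.35 (SE 0.0753, adjusted p = 9.27e-04, edgeR). Its obligate partner B2M, the light chain that FCGRT shares with MHC class I, moved the opposite way, from 1579 to 2459 CPM (log2 fold change 0.64, SE 0.0564, adjusted p = 3.79e-08, edgeR).

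**Figure D3:**
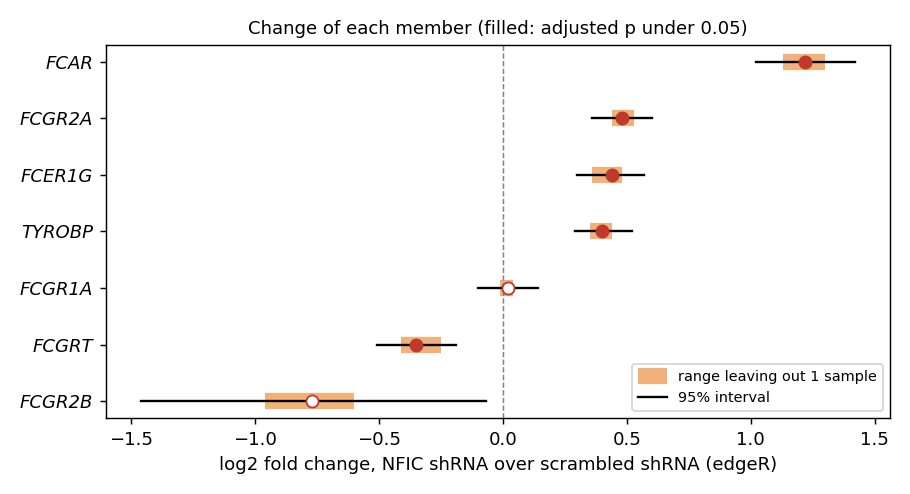
Log2 fold change of each of the 7 genes, NFIC shRNA over scrambled shRNA, from edgeR (horizontal axis), with the 95% interval as a line and the range over leaving out each sample in turn as a bar. Filled points passed an adjusted p under 0.05, with FCAR at 1.22 the highest and FCGRT at -0.35 the only filled point below 0.

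Levels of different genes were compared per gene length, on the deposited FPKM scale. In the scrambled samples the order was TYROBP (mean 138 FPKM), FCER1G (132), FCGRT (31.4), FCGR1A (21.4), FCGR2A (16.8), FCAR (3.11) and FCGR2B (0.144). Only TYROBP and FCER1G, neighbours at the top, overlapped between samples. With NFIC shRNA the means were 184 FPKM for TYROBP, 180 for FCER1G, 24.9 for FCGRT, 21.9 for FCGR1A, 23.8 for FCGR2A, 7.33 for FCAR and 0.0857 for FCGR2B. FCGRT, FCGR1A and FCGR2A, which had stood apart in the controls, then overlapped as neighbours, FCGRT with FCGR1A and FCGR1A with FCGR2A. On this scale the adaptors exceeded each of the receptors by several fold in both groups. For FCGRT that gap rests on the deposited gene lengths, 4052 bases beside 964 for FCER1G and 907 for TYROBP. Before division by length, the scrambled samples had on average 129 CPM of FCGRT, 129 of FCER1G and 126 of TYROBP. The order of FCGR1A and FCGR2A also depends on their lengths (2998 and 5316 bases), with 65.0 and 90.5 CPM in the scrambled samples. The gap between these receptors and the adaptors was likewise smaller in CPM than in FPKM, so it rests partly on gene length.

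**Figure D4:**
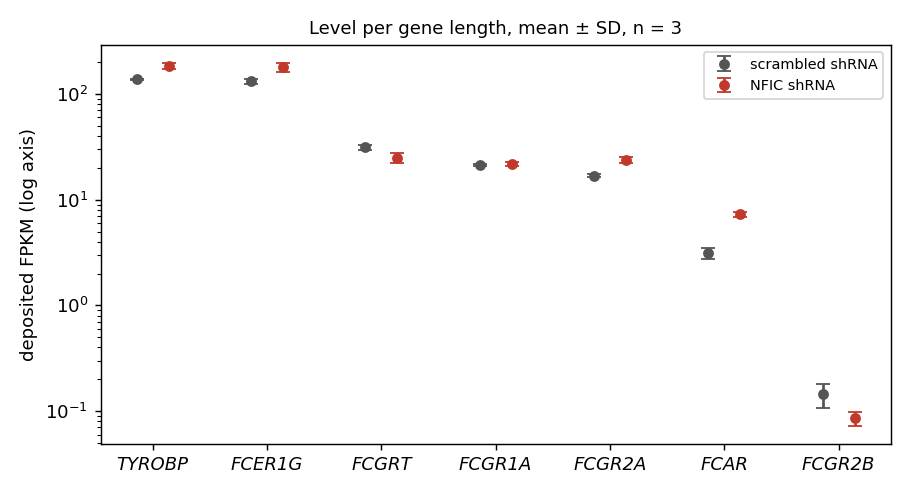
Mean deposited FPKM of each gene with the SD over 3 samples (log vertical axis) in the scrambled and NFIC shRNA groups, ordered by the scrambled level. TYROBP and FCER1G lie above 100 FPKM in both groups and FCGR2B below 1 FPKM.

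Other genes of the Fc receptor family, with other antibody-binding proteins and the partner chains of the receptors, were taken as a list of 21. The list includes the Fc receptor-like (FCRL) genes and the pseudogene FCGR1CP, so not every gene in it encodes a protein that binds antibodies. Of the list 9 could be tested. Of these 5 rose and 1 fell, and the 6 called (66.7%, beside 59.9% of all genes) had a median over the 9 of 0.38. The number called was 4 in DESeq2 and between 4 and 6 over all alternatives. TRIM21, the cytosolic receptor for antibodies, rose from 24.3 to 39.3 CPM (log2 fold change 0.69, adjusted p = 1.19e-07, edgeR). FCER2, the low affinity IgE receptor CD23, rose from 13.3 to 20.8 CPM (log2 fold change 0.64, adjusted p = 5.71e-05, edgeR). MS4A2, the beta chain of the high affinity IgE receptor, fell from 0.906 to 0.475 CPM (log2 fold change -0.91, adjusted p = 0.0252, edgeR). It is also the only one of the 6 listed mast cell and basophil markers that could be tested, and the tryptase genes TPSAB1 and TPSB2 were at or near 0. FCGR3A, the IgG receptor CD16 of NK cells and of a monocyte subset, had at most 2 counts in any sample, which is under the floor. FCGR3B was not analysed here.

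Receptors that share the adaptors moved both ways. Of 8 tested receptors that signal through TYROBP, 4 rose and 1 fell (62.5% called beside 59.9% of all genes, median 0.22). TREM2, a lipid sensing receptor of macrophages, had 19.0 to 21.6 CPM in the scrambled samples and fell to between 6.84 and 7.89 CPM (log2 fold change -1.47). CLEC5A rose from 0.619 to 1.44 CPM (1.21), SIGLEC14, an activating receptor for sialic acid, from 6.05 to 11.4 CPM (0.91), and PILRB from 75.5 to 107 CPM (0.51). Of 6 tested receptors other than Fc receptors that signal through FCER1G, 2 rose and 2 fell (66.7% called beside the same 59.9%, median -0.09). LILRA2, an activating member of the leukocyte immunoglobulin-like receptors, rose from 138 to 375 CPM (1.44) and LILRA6 from 1.01 to 3.43 CPM (1.76), while OSCAR, a collagen receptor, fell from a range of 28.7 to 35.2 CPM to one of 13.5 to 25.8 CPM (-0.69) and NCR3 from 6.35 to 3.12 CPM (-1.02). The LILRA genes are near copies of each other, so that their counts may share reads.

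Downstream of the ITAM, 37 genes of kinases, adaptors and lipid enzymes were tested, of which 15 rose, 10 fell and 12 did not pass, so that 67.6% were called beside 59.9% of all genes, with a median of 0.04. LYN and FGR, SRC family kinases that phosphorylate the motif, rose from 106 to 177 CPM (log2 fold change 0.75, adjusted p = 3.33e-09, edgeR) and from 30.6 to 79.0 CPM (1.37, adjusted p = 1.82e-09). PIK3CB, a catalytic subunit of PI 3-kinase, rose from 132 to 260 CPM (0.98). BLNK, a linker best known from B cells, fell from 1.81 to 0.281 CPM (-2.65). LAT, a membrane adaptor best known from T cells, fell from 25.4 to 15.1 CPM (-0.75), and PIK3R2, a regulatory subunit of PI 3-kinase, from 31.5 to 24.2 CPM (-0.38).

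Among 14 phosphatases and adaptors that dampen these signals, 6 rose, 2 fell and 6 did not pass (57.1% called, below the 59.9% of all genes, median 0.09). UBASH3B, a phosphatase acting on SYK, rose from 9.47 to 22.1 CPM (log2 fold change 1.22), and the adaptors DOK1 and DOK3 rose from 23.8 to 34 CPM (0.52) and from 91.9 to 132 CPM (0.52). PAG1, an adaptor that anchors the kinase CSK, fell from 55.7 to 43.7 CPM (-0.35).

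The machinery of the phagocytic cup, the actin structure that forms under a bound particle, moved mostly one way. Of 38 genes tested, 29 rose, 4 fell and 5 did not pass, so that 86.8% were called beside 59.9% of all genes (29.6% of all genes higher and 30.3% lower), with a median of 0.35. CRK, an adaptor that links receptors to RAC activation, rose from 35.2 to 97.1 CPM (log2 fold change 1.46, adjusted p = 1.40e-11, edgeR). CFL1, the actin severing protein cofilin, rose from 517 to 913 CPM (0.82), and MYO1F, a myosin of leukocytes, from 374 to 624 CPM (0.74). Among those that fell were CORO1A (330 to 247 CPM, -0.42), WAS, an activator of the ARP2/3 complex (40.0 to 32.1 CPM, -0.31), and FYB1 (33.7 to 26.3 CPM, -0.35).

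Interferon gamma is the classical inducer of FCGR1A, so genes induced by it were set beside the receptor. Of 14 tested, 8 rose, 2 fell and 4 did not pass (71.4% called beside 59.9% of all genes, median 0.37). IRF1, a transcription factor of the interferon response, rose from 28.7 to 61.9 CPM (log2 fold change 1.11, adjusted p = 1.44e-10, edgeR) and GBP4 from 6.80 to 16.9 CPM (1.31). SECTM1 fell from 4.40 to 2.49 CPM (-0.82) and IRF8 from 305 to 270 CPM (-0.18). FCGR1A had a log2 fold change of 0.02 in the same samples.

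**Figure D5:**
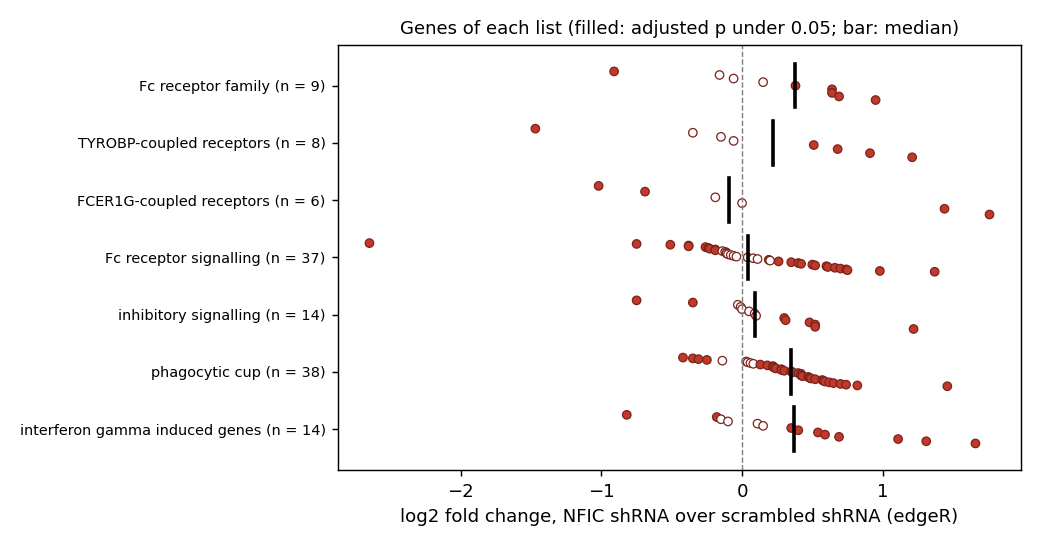
Log2 fold change of each tested gene (points, horizontal axis, NFIC shRNA over scrambled shRNA) in 7 gene lists around the Fc receptors (rows), filled where the adjusted p in edgeR was under 0.05, with the median of each list as a bar. The phagocytic cup has 29 filled points above 0 and 4 below, whereas the signalling list has 15 and 10.

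The promoters were searched because several of these genes are known to be controlled by interferon gamma and by PU.1, the myeloid master factor. The RefSeq promoter windows on GRCh38.p14, from 250 bases before to 50 bases after the start, were used for the genes that had one, and both strands were read for TTCNNNGAA (the interferon gamma activated site), GAGGAA (the core bound by PU.1) and TTGGC (the core bound by nuclear factor I). These letters occur in 7.66%, 27.9% and 45.6% of all 35116 promoter windows, so that the short cores in particular are common. The paired form of the nuclear factor I core occurs in only 0.0285% of all these windows. Its absence from a few windows was therefore likely beforehand and cannot show whether NFIC acts on a gene. FCGR1A held TTCNNNGAA 93 bases before its start. FCGR2B had separate windows, beginning at chr1:161646993 and chr1:161662893. The latter held TTCNNNGAA 141 and 106 bases before its start and all other FCGR2B matches given here, and the former held no match. The core GAGGAA stood 46 bases before the start of FCGR1A and 45 before that of FCGR2A, on the reverse strand in much the same surroundings, and also in the windows of FCGR2B, TYROBP and FCGRT. TTGGC was present in FCGR1A, FCGR2A, FCGR2B and FCER1G, among them genes that rose and genes that did not pass the test, and the paired form of TTGGC was in none of them.

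The stretches around these matches are shown on the plus strand of GRCh38, with the match in capitals. The first lies at chr1:149782593-149782617, the second at chr1:149782640-149782661 and the third at chr1:161505404-161505425.
FCGR1A TTCNNNGAA: agatgtatTTCCCAGAAaagcaaca
FCGR1A core of PU.1, reverse: caatttccTTCCTCttttctaa
FCGR2A core of PU.1, reverse: ccatttccTTCCTCttttctaa
A match of letters is a description of the window and does not show binding.

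The genes most like each receptor over the 6 samples were found by Pearson's r of log2 CPM. Because the 6 points share 2 groups, genes that separate the groups in the same direction tend to have a high r. Thus 2233 genes had an r above 0.95 with FCGR2A, 2186 with TYROBP, 1855 with FCAR and 1334 with FCER1G. The nearest were RNF4 (0.9998), IFIT3 (0.9996) and AC000120.4 (0.9989) for FCGR2A, HNRNPUL2 (0.9995), TTF1 (0.9995) and KDM3B (0.9986) for TYROBP, TUBD1 (0.9979), DNASE1L2 (0.9978) and AFF4 (0.9978) for FCAR, and CENPE (0.9979), CUL3 (0.9975) and CHCHD7 (0.9972) for FCER1G. FCGRT was most like IMPDH1 (0.9953), MAP2K2 (0.9947) and GPT (0.9911), with 320 genes above 0.95, and FCGR2B like LIG3 (0.9870) and TMEM109 (0.9862), with 65. FCGR1A stood apart from this pattern, with only CACTIN (0.9781), MRPL50 (0.9614) and SSR2 (0.9612) above 0.95.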

How the data were processed

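Bulk mRNA libraries (NEBNext Ultra, paired-end) of 3 scrambled and 3 NFIC shRNA samples of THP-1 cells were used. Per the labels and the study's methods, the authors used Trim Galore, FastQC, STAR on GRCh38, featureCounts and DESeq2, and strand setting and treatment of duplicates were not given in the sources used here. The authors deposited the count per gene without normalization, which was tested here. They also deposited a normalized signal (the count divided by a size factor), FPKM values, which are used here for levels between genes, and their own comparison as log2 fold changes, the Wald score and p-values, which were not used.

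The counts were fitted with edgeR 4.0.16 in R 4.3.3 (TMM scaling, filter on low counts, robust quasi-likelihood test), with Benjamini-Hochberg adjustment over the 19182 genes tested and a threshold of 0.05. The SE was obtained from the log2 fold change and the F statistic as their quotient after taking the root of F. Log2 CPM used a prior count of 2. Ratios were compared with exact permutation tests. Scripts were tested on simulated data in which 200 genes were changed and every gene had the same dispersion. There 100% of the changed genes were recovered, and 6.54% of the calls were false at the threshold of 0.05. Far fewer genes were changed in the simulation than were called in the real data. Gene positions, coding sequences and shared windows of 75 bases came from GENCODE release 44, and promoters from RefSeq, which gave windows for all listed genes but FCAR. WARS was matched to WARS1. The floor of 3 counts covers counting error only, whereas the intervals of the edgeR fit include the spread between samples.

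The genes and lists were chosen with earlier results of these data known, and the lists come from general knowledge. Named are the receptors, NFIC, close copies and partner chains, up to 3 genes of each list in each direction with the smallest adjusted p, defining markers, and the 3 protein-coding genes most like each receptor. Some genes chosen by this rule are not reported here. Overlapping noncoding genes, H2BC18 and the markers with values were named after their values were seen. The alternatives were DESeq2 1.42.0 and its size factors, upper quartile and total count scaling, no filter, at least 10 counts in every sample, a replicate block, each sample left out, FPKM for the ratios, and, chosen after seeing the data, sums over FCGR1A and FCGR2B with their copies.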

Additional observations from a re-analysis of the deposited data

How the results depend on the processing

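FCAR (log2 fold change 1.13 to 1.3), FCGR2A (0.43 to 0.53), FCER1G (0.36 to 0.48), TYROBP (0.34 to 0.44) and FCGRT (-0.41 to -0.25) passed under every alternative run. FCGR2B passed with upper quartile scaling (-0.82), with at least 10 counts in every sample (-0.78) and without scrambled replicate 1 (-0.96), and ranged from -0.96 to -0.60 over the samples left out. FCGR1A reversed, without passing, to -0.04 with upper quartile scaling and ranged from -0.01 to 0.04 over the samples left out. The log2 ratio of TYROBP to FCER1G ranged from -0.08 to 0.00, and that of FCGR2B to FCGR2A from -1.43 to -1.04, where no permutation p could pass the threshold. The cause of these shifts was not tested. Between 10176 (DESeq2) and 11783 genes were called. In the lists the number called ranged from 4 to 6 (Fc receptor family), 5 in every case (TYROBP-coupled), 3 to 4 (FCER1G-coupled), 24 to 29 (signalling), 8 to 9 (inhibitory), 30 to 33 (phagocytic cup) and 9 to 11 (interferon gamma). Samples with the same replicate number did not deviate together (correlations 0.0563, -0.0862 and -0.0446), and a replicate block gave 10983 calls and changed no call among the receptors (FCAR 1.22, FCGR2A 0.48, FCER1G 0.43, TYROBP 0.40, FCGRT -0.36, FCGR1A 0.02 and FCGR2B -0.76). At this depth FCGR2B and FCGR3A are limited by counting, FCGR3A lying under the floor of 3 counts. Few counts also lie behind other named genes, such as MS4A2 and BLNK. MS4A2 had 19, 20 and 22 counts in the scrambled samples and 8, 13 and 11 with NFIC shRNA. BLNK had 31, 50 and 42 counts in the scrambled samples and 4, 9 and 6 with NFIC shRNA.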

Other observations

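The other monocyte markers divided between the groups. Of the 11 that could be tested, 6 rose with NFIC shRNA and 5 fell (edgeR, adjusted p under 0.05), beside 59.9% of all genes called, 29.6% higher and 30.3% lower. S100A9, a calcium-binding alarmin, rose from 531 to 1649 CPM (log2 fold change 1.63) and ITGAM, the integrin chain of complement receptor 3, from 50.4 to 100 CPM (0.99). CD14, the LPS co-receptor, rose from 7.16 to 11.2 CPM (0.65). CD68, a lysosomal protein of macrophages, fell from 261 to 130 CPM (-1.01), CSF1R, the receptor for M-CSF, from 219 to 146 CPM (-0.59) and CD33 from 33.9 to 17.4 CPM (-0.97). These markers were named after their values were seen.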
